A study of Malus domestica with 5 samples.

Results

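miR396 is the plant microRNA family that represses growth-regulating factors (GRFs), and in apple (Malus domestica) buds 7 of its members were counted, which are 7 of the 207 apple miRNAs named in a table of 430043 small RNA features. Members were taken by name, as every mdm-miR396 followed by a letter. The 7 members carried 4 distinct sets of counts, called profiles here: miR396a and miR396b each had one of their own, miR396c, miR396d and miR396e shared another (miR396c/d/e), and so did miR396f and miR396g (miR396f/g). No other feature of the table had the counts of any of these profiles. Members that share a profile cannot be told apart, and all 4 profiles had enough counts to be tested.

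The juvenile group held 2 libraries of juvenile-phase buds, whose tissue label names a juvenile-like sucker at the base of the stem. The reproductive group held 3 libraries of reproductive-phase buds. The labels give no cultivar, tree, age, date or treatment for either group, and suckers were named for the juvenile group alone, so phase and the position of the shoot on the tree cannot be told apart. Whether replicates are separate trees is not stated either, and the spread behind each p-value may therefore be technical. Summed counts ran from 85087230 to 97283456 in juvenile and from 122455352 to 140173167 in reproductive libraries. Because many features had identical counts, one read may be counted under several features, and these sums are not numbers of reads. Small RNA counts hold no protein-coding markers, so the bud label was not checked against markers.

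In flowering plants miR396 pairs with a site in the mRNAs of most GRF genes, in the coding sequence for their WRC domain, and lowers their level. GRF proteins act with GIF coactivators and promote cell division in young leaves, meristems and flower organs, so miR396 limits the number of cells in an organ. In Arabidopsis miR396 accumulates as leaf cells leave division, and TCP4, a transcription factor repressed by miR319, activates a MIR396 gene. The mature Arabidopsis miR396 forms differ only at the 3′ end.

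The family was dominated by a single profile in every library. miR396c/d/e made up 71.5% and 69.9% of the miR396 sum (each profile added once) in juvenile replicates 1 and 2, and 76.7%, 71.2% and 69.3% in reproductive replicates 1, 2 and 3. miR396f/g came second, with 18.6% and 21.0% in juvenile and 13.6%, 14.5% and 15.7% in reproductive libraries. miR396b held between 6.88% and 10.6% and miR396a between 2.20% and 4.48%. This order of the 4 profiles by level was the same in all 5 libraries, and neighbouring profiles did not overlap in any group.

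Among the 79 distinct profiles of named apple miRNAs, ranked by counts within each library, miR396c/d/e was at place 9 in both juvenile libraries and at places 6, 7 and 7 in reproductive buds. miR396f/g was at place 14 in both juvenile and at place 15 in all reproductive libraries. miR396b moved from places 20 and 21 to places 18, 17 and 17, and miR396a from place 28 in both juvenile libraries to places 23, 21 and 22. These ranks do not depend on how libraries are scaled. The miR396 sum made up 1.21% and 0.798% of all distinct named miRNA counts in juvenile libraries and 2.04%, 2.26% and 2.10% in reproductive ones, so the groups did not overlap on this measure. The total was led by miR166, which held 62.5% and 64.3% of it in juvenile buds and 51.6%, 45.0% and 43.1% in reproductive buds. With miR166 left out of the total, a choice made after the values were seen, the miR396 share was 3.23% and 2.23% in juvenile and 4.21%, 4.12% and 3.70% in reproductive libraries, still without overlap. How often the shares of other families separate the groups was not computed.

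The comparison between the phases asked whether miR396 differs between juvenile and reproductive buds, and its calls were not the same for all profiles, although a test of the difference between profiles, given with the makeup of the family, did not pass. With TMM scaling over all features, the 2 rarer profiles, miR396a and miR396b, rose in reproductive buds, and the dominant miR396c/d/e did not pass the test. miR396f/g fell under TMM and with DESeq2, but was called higher with TMM over named miRNAs and with the summed counts alone. Under TMM, 2 of 4 profiles were thus called higher and 1 lower, where 21.1% of all 282619 features tested were called higher and 24.3% lower. Among the 64 distinct named miRNA profiles tested, 25.0% were called higher and 35.9% lower. DESeq2 called the same profiles in the same directions, beside 12.9% of all features higher and 21.1% lower. With members this few, nothing particular to miR396 can be read from these counts. In whole buds a change in the share of cells that make miR396 and a change per cell cannot be told apart.

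The most abundant profile, miR396c/d/e, stood at 5756 and 4464 TMM-normalised counts in juvenile replicates 1 and 2, and at 6871, 5800 and 4837 in reproductive replicates 1, 2 and 3. The groups overlapped, with reproductive replicate 3 below juvenile replicate 1. The log2 fold change, reproductive over juvenile, was 0.19 (SE 0.14, edgeR adjusted p = 0.26). It was called higher with TMM over named miRNAs and with the summed counts.

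miR396f/g stood at 1494 and 1341 TMM-normalised counts in juvenile buds and at 1217, 1181 and 1093 in reproductive buds. All reproductive libraries lay below both juvenile ones, which 33.0% of all features tested also showed. The profile fell by 0.29 on the log2 scale under TMM (SE 0.09, edgeR adjusted p = 0.019), and stood at 0.32 with TMM over named miRNAs (edgeR adjusted p = 0.0085) and at 0.83 with the summed counts (edgeR adjusted p = 4.4e-06). Under TMM the call also ended without juvenile replicate 1 (log2 fold change -0.20, edgeR adjusted p = 0.15), reproductive replicate 2 (-0.30, 0.054) or reproductive replicate 3 (-0.23, 0.092).

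miR396b stood at 590 and 439 TMM-normalised counts in juvenile buds and at 637, 814 and 739 in reproductive buds. All reproductive libraries lay above both juvenile ones, which 36.1% of all features tested also showed, and the gap was narrowest between juvenile replicate 1 and reproductive replicate 1. miR396b rose 1.40-fold, a log2 fold change of 0.49 with an SE of 0.13 (edgeR adjusted p = 0.0058). Leaving out juvenile replicate 2 ended this call (0.31 on the log2 scale, edgeR adjusted p = 0.13).

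miR396a, the rarest profile, stood at 214 and 140 TMM-normalised counts in the juvenile libraries, from 126 and 62 counts as deposited. It stood at 232, 354 and 313 in the reproductive libraries, from 386, 522 and 491 counts. The groups did not overlap, and again reproductive replicate 1 was the closest to the juvenile libraries. miR396a rose 1.65-fold, a log2 fold change of 0.72 with an SE of 0.19 (edgeR adjusted p = 0.0058). The fold depended on the juvenile libraries: the log2 fold change was 1.09 without replicate 1, and 0.48 without replicate 2, where the call ended (edgeR adjusted p = 0.13).

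**Figure D1:**
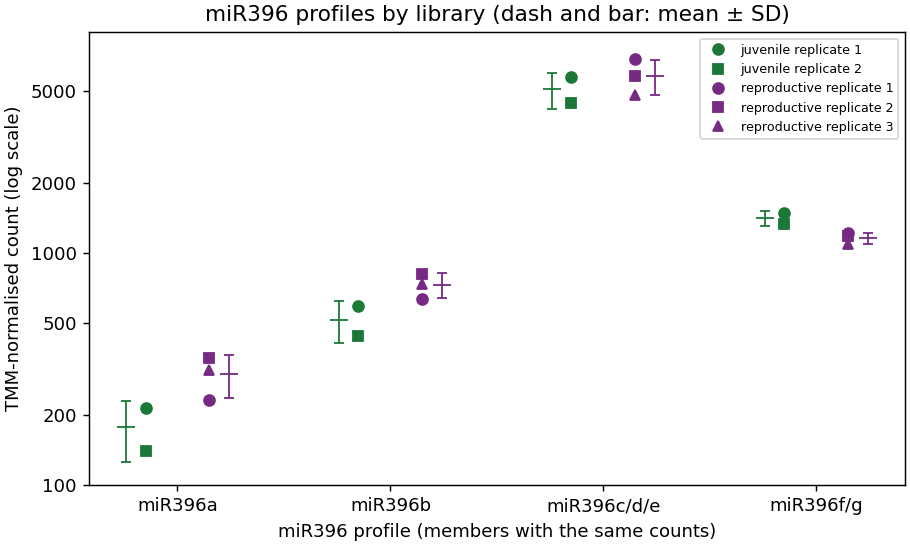
TMM-normalised counts (log axis) of the 4 miR396 profiles in 2 juvenile (green) and 3 reproductive (purple) libraries, one point a library, with mean and SD beside them. The reproductive points lie above the juvenile ones for miR396a and miR396b, overlap for miR396c/d/e and lie below for miR396f/g, where the direction turns under 2 other scalings.

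Juvenile replicate 2 was lower than juvenile replicate 1 in all 4 profiles under TMM, so the juvenile spread was shared by the family. For the miR396 sum the TMM-normalised counts were 8055 and 6384 in juvenile and 8957, 8150 and 6981 in reproductive libraries. The juvenile mean was 7220 ± 1181 (SD, n = 2) and the reproductive mean 8029 ± 993 (SD, n = 3), and the groups overlapped. Scaled on the summed counts alone (CPM), the sum was at 48.7 and 33.1 in juvenile and at 106, 98.2 and 88.9 in reproductive libraries. On that scale the groups did not overlap for the sum or for any of the 4 profiles, where 88.1% of all features tested also lay wholly higher in reproductive libraries.

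How the libraries were scaled set the level of every fold change. The mean library factor of reproductive over juvenile libraries was 3.08 with TMM, 3.12 with DESeq2's size factors, 2.01 with TMM over named miRNAs and 1.41 with the summed counts. The median log2 fold change of all features was 0.08 under TMM. It was higher by 0.60 with TMM over named miRNAs and by 1.11 with the summed counts. All 4 profiles were called higher under both of these scalings, where 56.4% and 83.3% of all features tested were called higher too. Relative to the median of all features, the values hardly moved across the 4 scalings. This follows from the measure, because a change of library factors shifts all features nearly alike. miR396a lay between 0.65 and 0.66 above that median on the log2 scale, miR396b between 0.41 and 0.42 above and miR396c/d/e between 0.11 and 0.12 above. miR396f/g lay below it, at -0.36 in each. In the TMM test 77.2% of all features had a lower log2 fold change than miR396a, 68.6% a lower one than miR396b, 55.4% a lower one than miR396c/d/e and 31.6% a lower one than miR396f/g.

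**Figure D2:**
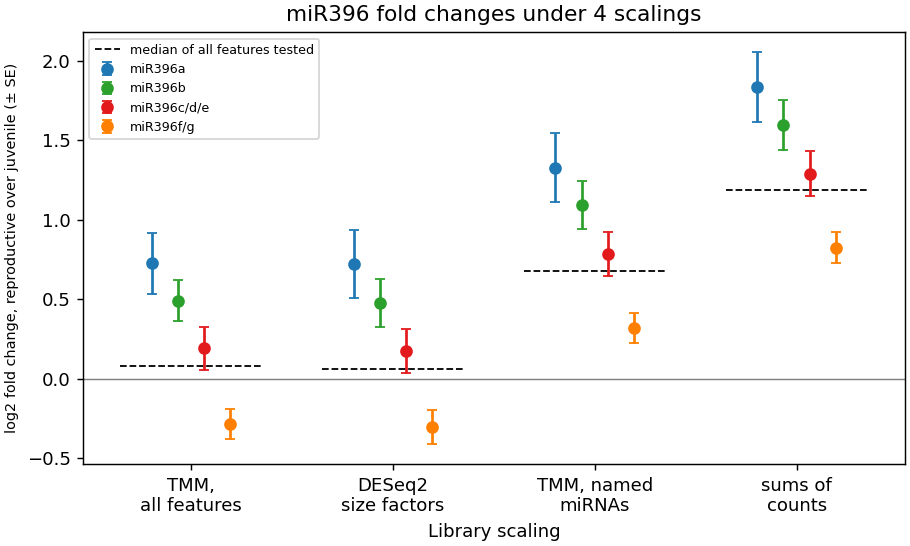
Log2 fold change, reproductive over juvenile, of each miR396 profile (points, with SE as bars) under 4 library scalings, with the median of all features tested as a dashed line. The order of the profiles and their distance to the median stay alike, while zero lies above miR396f/g under TMM (-0.29) and DESeq2 (-0.31) and below it under the other two (0.32 and 0.83).

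The makeup of the family, which no scaling can change, was compared next. miR396f/g held 19.8% ± 1.73 (SD, n = 2) of the miR396 sum in juvenile buds and 14.6% ± 1.03 (SD, n = 3) in reproductive buds, with no overlap. This gave a two-sided exact permutation p = 0.1, the smallest value possible with 10 splits of 2 against 3 libraries. No share could therefore pass 0.05 in this test, whatever its values, and the p-values only order the splits (adjusted by Benjamini-Hochberg over the 4 profiles, this exact permutation p was 0.4). Shares of the other profiles overlapped between groups. miR396a averaged 2.43% ± 0.325 (SD, n = 2) in juvenile buds and 3.81% ± 1.05 (SD, n = 3) in reproductive buds, and miR396b 7.10% ± 0.312 and 9.23% ± 1.86 (exact permutation p = 0.3 for each, adjusted 0.4). miR396c/d/e averaged 70.7% ± 1.09 and 72.4% ± 3.86 (exact permutation p = 0.9, adjusted 0.9).

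Reproductive replicate 1 stood apart from the other reproductive libraries in this makeup. Its shares of miR396a (2.59%) and miR396b (7.11%) lay within the juvenile range, while replicates 2 and 3 held 4.34% and 4.48% of miR396a and 9.99% and 10.6% of miR396b. Its share of miR396c/d/e, 76.7%, was the highest of all libraries. Without it, the difference in mean share was 1.98 percentage points for miR396a, against 1.38 with it, and 3.18 for miR396b, against 2.12. For miR396c/d/e the difference turned from 1.70 to -0.46 percentage points.

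**Figure D3:**
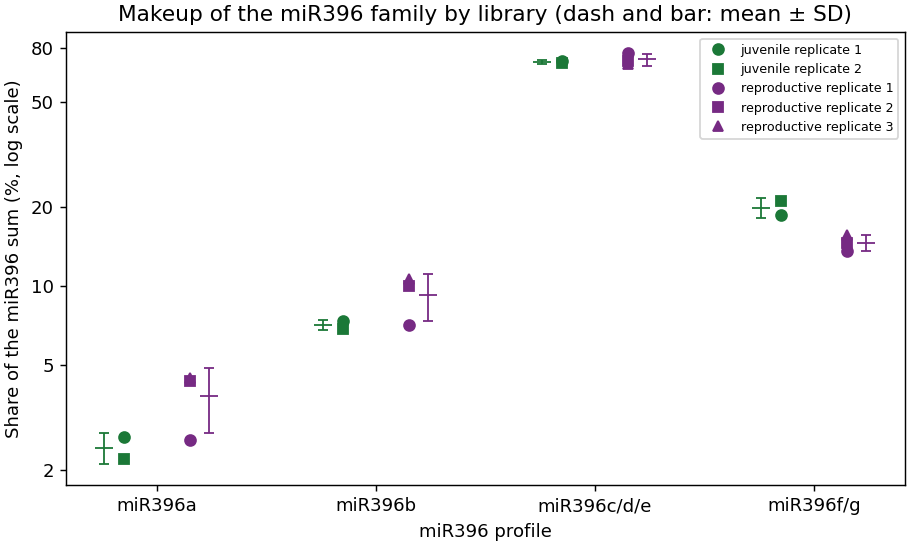
Share of the miR396 sum (percent, log axis) held by each profile in 2 juvenile (green) and 3 reproductive (purple) libraries, with mean and SD beside the points. miR396f/g is lower in every reproductive library, and reproductive replicate 1 (purple circle) lies with the juvenile libraries for miR396a and miR396b.

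Quotients between profiles set each pair side by side within a library. miR396a over miR396f/g was 0.143 and 0.105 in juvenile and 0.191, 0.300 and 0.286 in reproductive libraries, a 2.09-fold higher mean. miR396b over miR396f/g was 1.74-fold higher and miR396c/d/e over miR396f/g 1.39-fold higher, both without overlap. miR396a over miR396b was 0.363 and 0.320 in juvenile and 0.364, 0.435 and 0.424 in reproductive libraries, which barely separated. The quotients of miR396a and of miR396b over miR396c/d/e overlapped between groups. How often such quotients separate in other families was not computed.

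The difference between profiles did not pass a test over named families. With edgeR's diffSpliceDGE, which compares each profile's change with that of its own family, 9 of 42 profiles in 15 families passed (21.4%), and none of these was a miR396 profile. On the natural-log scale, the change relative to the family was 0.41 for miR396a (edgeR adjusted p = 0.11) and -0.30 for miR396f/g (edgeR adjusted p = 0.19). It was 0.24 for miR396b (edgeR adjusted p = 0.39) and 0.03 for miR396c/d/e (edgeR adjusted p = 0.99). Changes on this scale are smaller than the same changes on the log2 scale. miR396c/d/e held from 69.3% to 76.7% of the miR396 sum, so its change had to lie close to that of the family. Its value and p therefore say little about that profile. miR396a passed when reproductive replicate 1 was left out (0.57, diffSpliceDGE adjusted p = 0.0097). The p-values that miss the threshold do not show that the profiles moved alike.

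Set against other families within the same library, the miR396 sum overlapped between groups over miR319 and was higher in reproductive buds over miR159 and miR166. miR319, which represses TCP genes of leaf growth, was more abundant: miR396 over miR319 was 0.134 and 0.0930 in juvenile and 0.0891, 0.107 and 0.0890 in reproductive libraries, and the groups overlapped. The quotient over miR159, a relative of miR319 that represses GAMYB-like genes, was 0.217 and 0.142 in juvenile and 0.346, 0.329 and 0.292 in reproductive libraries. The quotient over miR166, which represses HD-ZIP III genes of organ polarity, was 2.90-fold higher in reproductive libraries (0.0462 ± 0.00587, SD, n = 3) than in juvenile ones (0.0159 ± 0.00493, SD, n = 2). Both of these quotients separated the groups. Separation was common for single features: under TMM, 36.1% of all features tested lay wholly higher in reproductive libraries and 33.0% wholly lower. Under TMM, the log2 quotient of reproductive over juvenile means was 0.15 for the miR396 sum, -0.72 for miR159 and -1.39 for miR166. On that scale the change lay mostly in the denominators. The miR396 sum itself stood at 0.75 with TMM over named miRNAs and at 1.26 with the summed counts. How the change divides between miR396 and the denominators therefore depends on the scaling.

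The families of the age pathway gave quotients in which reproductive replicate 1 again differed. miR396 over miR156, the repressor of SPL genes that holds plants in the juvenile phase, was 18.7 and 27.9 in juvenile libraries and 115, 49.5 and 48.7 in reproductive ones. miR396 over miR172, which lowers AP2-type floral repressors in adult shoots, was 19.9 and 28.8 in juvenile and 25.2, 13.4 and 12.0 in reproductive libraries. The first quotient separated the groups and the second did not, because reproductive replicate 1 lay between the juvenile libraries. Both denominators were low: miR156 held from 0.0178% to 0.0649% of the distinct named miRNA counts in a library, and miR172 from 0.0277% to 0.175%. Under TMM their log2 quotients of reproductive over juvenile means were -1.36 and 0.72, beside 0.15 for the miR396 sum. All of these quotients are of family sums in which each distinct profile stands once, and they were described without a test. How often quotients of other families separate the groups was not computed.

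**Figure D4:**
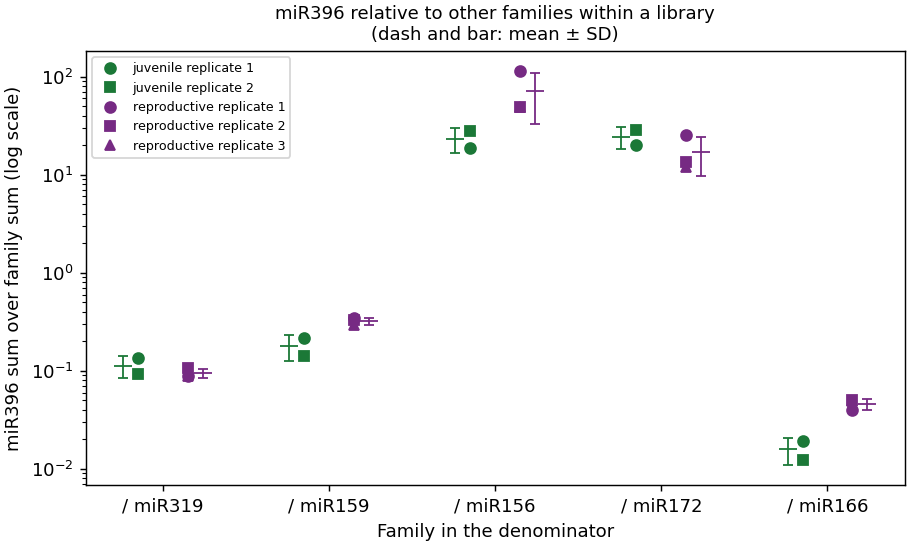
The miR396 sum divided by the sum of 5 other families within each library (log axis), for 2 juvenile (green) and 3 reproductive (purple) libraries, with mean and SD beside the points. The groups separate over miR159, miR156 and miR166 and overlap over miR319 and miR172.

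The named miRNA profiles most like each miR396 profile were found by the root-mean-square (RMS) difference of their log2 normalised counts, each centred on its mean over the 5 libraries. Scaling largely cancels in this measure. miR396f/g lay closest to the counts shared by miR171j, miR171k and miR171l (RMS difference 0.07) and to miR164a (0.08). miR171 represses GRAS genes of the meristem and miR164 the NAC genes of organ boundaries. It was followed by the counts shared by miR167h to miR167j (0.16), by miR5225c (0.17) and by those of miR171a and miR171b (0.18).

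miR396c/d/e lay closest to the counts shared by miR171c to miR171e (RMS difference 0.11), then to miR164a (0.20), miR390a to miR390f (0.20), miR162a and miR162b (0.22), and miR319a and miR319b (0.22). miR396b lay closest to miR162a and miR162b (0.12), which repress DICER-LIKE1, then to miR2118a to miR2118c (0.14), miR167b to miR167g (0.17), miR172d to miR172h (0.21) and miR535d (0.24). miR396a lay closest to miR172d to miR172h and to miR2118a to miR2118c (0.17 each), followed by miR171g and miR171h (0.20), miR167b to miR167g (0.20) and miR477b (0.23).

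Within the family, miR396a and miR396b were the most alike (RMS difference 0.16), and miR396a and miR396f/g the least (0.58). miR396c/d/e stood at 0.27 from miR396f/g and at 0.29 from miR396b. Both miR396c/d/e and miR396f/g thus lay closer to each of their 5 neighbours from other families than to any miR396 profile. These neighbours were picked as the nearest of many named profiles, while the family offers only a few. The selection favours closer neighbours from outside, so likeness within the family cannot be judged from this. The 2 nearest neighbours of miR396f/g, the miR171j to miR171l counts and miR164a, were not called between the groups (edgeR adjusted p = 0.56 and 0.79).

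Among 11 families of leaf and meristem growth other than miR396 (miR156, miR159, miR160, miR164, miR166, miR167, miR171, miR172, miR319, miR390 and miR394), 105 members carried 31 distinct profiles, of which 26 were tested. Under TMM 6 of these were higher and 8 lower, with a median log2 fold change of -0.08, beside a median of 0.08 for all features tested, of which 21.1% were higher and 24.3% lower. Both miR319 profiles were called higher, and 1 profile each of miR164, miR167, miR171 and miR172. Those called lower were 2 profiles each of miR156 and miR159 and 1 each of miR160, miR166, miR167 and miR394. The single profile of miR390 was in neither set. Opposite calls within 1 family therefore occurred in miR167 as well as in miR396, each under TMM; with the summed counts 17 profiles of the list were higher, where 83.3% of all features tested were, and 4 lower, and no miR396 profile was lower.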

How the data were processed

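Small RNAs of apple buds were sequenced in 2 juvenile and 3 reproductive libraries. The labels' protocols describe small RNAs purified by size on a gel, ligated to adapters at both ends, copied and amplified. The authors deposited whole-number read counts per feature, without normalization. The submitters' processing notes name Bowtie 1.1.2; its mismatches, its handling of multiply matching reads, the build and the repeat annotation were not given in the sources used here. Near-identical members may therefore share reads also between profiles, and no counting intervals are given. Of the 7 miR396 names, 3 (miR396a, miR396b and miR396f) match a gene in the RefSeq gene table of apple.

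Columns were matched to libraries by their titles. Computations used R 4.3.3, edgeR 4.0.16 and DESeq2 1.42.0. The 282619 features that reached 10 counts in 2 or more libraries entered edgeR's quasi-likelihood test, with group as the only term, library sizes as summed counts times TMM factors, and Benjamini-Hochberg adjustment over all features (threshold 0.05). SE is the log2 fold change divided by the square root of F. Normalised counts are scaled to a geometric mean library factor of 1. Family sums add each distinct profile once. Likeness used log2(normalised count + 0.5), naming 5 neighbours per profile. Alternatives were other scalings, DESeq2, no count minimum, each distinct set of counts once, a replicate block and leaving out each library. The diffSpliceDGE test was added after the data were seen. Every miR396 profile is named. The members and lists were chosen with earlier results of these data known.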

Additional observations from a re-analysis of the deposited data

How the results depend on the processing

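Scaling mattered most. With TMM over named miRNAs and with the summed counts, miR396f/g turned from -0.29 to 0.32 and 0.83 on the log2 scale, miR396c/d/e became called at 0.79 and 1.29, and the log2 quotient of group means for the miR396 sum moved from 0.15 to 0.75 and 1.26. The number of miR396 profiles called higher went from 2 to 4 and the number called lower from 1 to 0 under both. Over all features, 59564 were higher and 68585 lower under TMM, 159343 and 21253 with TMM over named miRNAs, and 235325 and 6957 with the summed counts, and DESeq2 called 36375 higher. In the growth list 17 profiles were higher with the summed counts, and 4 were lower with them and 5 with TMM over named miRNAs.

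With 1 library left out, log2 fold changes ran from 0.48 to 1.09 for miR396a, from 0.31 to 0.73 for miR396b, from 0.02 to 0.39 for miR396c/d/e and from -0.36 to -0.20 for miR396f/g. The calls lost are named with each profile above. Between 0 and 2 profiles were called higher, 0 without juvenile replicate 2 in edgeR's test (2 with DESeq2 on all libraries), and between 0 and 1 lower. The miR396 sum had log2 quotients from -0.0050 to 0.33. Features called higher numbered from 31259 (without juvenile replicate 2) to 65384. Relative to the family and on the natural-log scale, diffSpliceDGE gave from 0.32 to 0.57 for miR396a. For miR396c/d/e it gave from -0.0073 (without reproductive replicate 1) to 0.045. Log2 quotients of group means ran from -0.49 to 0.032 for miR396 over miR319, from 0.57 to 1.18 over miR159 and from 1.25 to 1.90 over miR166. With every member counted, differences in share were 0.545 percentage points for miR396a, 0.852 for miR396b, 2.49 for miR396c/d/e and -3.89 for miR396f/g, against 1.38, 2.12, 1.70 and -5.20 with each profile counted once.

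Replicate numbers 1 and 2 occur in both groups. Deviations of same-numbered libraries from their group means correlated at -0.12 and -0.02 across features. With 2 juvenile libraries, their deviations mirror each other. These values therefore cannot tell whether same-numbered libraries share more than a number. With the replicate block, miR396f/g had a log2 fold change of -0.24 (edgeR adjusted p = 0.17) and 0 profiles were called lower. miR396a and miR396b stayed called. Replicate number 3 occurs only in the reproductive group, so its block term absorbed that library. The group difference in this fit thus rested on replicates 1 and 2, with very few residual degrees of freedom. The lowest count of any profile was 62, for miR396a in juvenile replicate 2.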
